A study of Homo sapiens with 4 samples.

Results

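MYB, its paralogs MYBL1 and MYBL2, and the genes on either side of MYB on chromosome 6, HBS1L and AHI1, were followed in RNA-seq of cells labelled NB4, which is a human acute promyelocytic leukemia line. These 5 genes were taken by symbol from a table of 58735 genes, and the set was chosen by the FPKM difference between these same groups, in which MYB had been seen among the largest decreases. Their differences between the groups are therefore given as a description, without P values. The study asked how the expression of leukemia genes changes when BET proteins are degraded. The 2 control libraries came from cells labelled as untreated, and the 2 GNE-987 libraries from cells of the same line given GNE-987. The paper's legends give 25 nM for 24 h, and the labels name no genetic change in either group. GNE-987 is a bifunctional molecule that binds BET bromodomain proteins and brings them to a ubiquitin ligase.

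MYB encodes a transcription factor that binds DNA through repeated helix-turn-helix units and recruits the acetyltransferases CBP and p300. It maintains immature blood cells, declines as they mature, and is needed by many acute leukemias. MYBL2 (B-MYB) joins the MuvB complex in dividing cells and activates genes of late S phase and mitosis, while MYBL1 (A-MYB) is best known from spermatocytes and germinal centre B cells. The interval between HBS1L and MYB holds enhancers of MYB that are bound by erythroid factors, and common variation there is associated with fetal hemoglobin level. HBS1L encodes a GTPase that works with Pelota to rescue stalled ribosomes, and AHI1 encodes jouberin, a protein of the ciliary transition zone.

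The deposited values were FPKM, which are fragment numbers divided by the length of the gene and by a total for the library. Reads on genes, recovered from the steps of these values, numbered 19469640 and 19273090 for control but only 12399477 and 12904961 for GNE-987. The treated libraries were the shallower pair, at 0.653 times the control reads. The totals behind the deposited values differed from these reads, since the reads on genes were 0.846 and 0.871 times that total in control but 1.48 and 1.46 times in GNE-987. The deposited scale thus sets GNE-987 values higher against control than the recovered reads do, and scaling to those reads moved the median log2 fold change of all tested genes from 0.17 to -0.57. Genes that mark promyelocytes were at or near 0 in the control libraries, with MPO at 0.0246 and 0 FPKM, ELANE and CTSG listed at 0 in both, and CEBPE at 0.0559 and 0.116 FPKM. Of the other granule and myeloid markers, PRTN3 was at 0.341 and 0.710 FPKM, CD33 at 0.836 and 0.915, CSF3R at 0.0824 and 0.0644, AZU1 at 2.07 and 2.10, LYZ at 2.02 and 1.59, and SPI1 at 7.52 and 5.68. Erythroid markers were higher than these, with GATA1 at 124 and 122 FPKM, KLF1 at 85.2 and 85.9, HBG1 at 42.3 and 44.8, HEMGN at 23.6 and 23.6, TAL1 at 12.5 and 14.05, EPOR at 7.43 and 7.61, ALAS2 at 5.47 and 5.32, HBZ at 32.4 and 22.4, and HBG2 at 6.30 and 15.8. The markers that define the labelled line were thus absent or low, and the cells are called by their label here.

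The start regions of MYB and MYBL2 shared a short stretch of letters, so both are shown. Each is the 250 bases before the start of the reference transcript in RefSeq (GRCh38.p14), chr6:135181058-135181307 on the plus strand for MYB and chr20:43666864-43667113 on the plus strand for MYBL2. Capitals mark TTGGCGGG, a stretch of the E2F type that was picked after the sequences had been read.
MYB: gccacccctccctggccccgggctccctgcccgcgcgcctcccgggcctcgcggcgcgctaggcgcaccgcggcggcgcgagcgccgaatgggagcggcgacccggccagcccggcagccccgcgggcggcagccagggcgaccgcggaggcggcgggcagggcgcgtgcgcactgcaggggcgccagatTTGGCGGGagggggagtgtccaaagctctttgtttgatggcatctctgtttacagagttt
MYBL2: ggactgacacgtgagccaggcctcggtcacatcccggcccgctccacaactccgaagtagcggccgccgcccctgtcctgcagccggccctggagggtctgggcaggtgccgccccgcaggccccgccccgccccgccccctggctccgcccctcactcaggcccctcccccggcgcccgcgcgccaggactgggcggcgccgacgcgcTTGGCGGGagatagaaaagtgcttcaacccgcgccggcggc

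TTGGCGGG, searched on both strands, began 60 bases before the start of MYB and 41 bases before that of MYBL2. It occurred in 1.07% of the 35116 promoter windows of this length and was not found in those of HBS1L or AHI1. The MYB window was 75.6% G or C with 34 CpG dinucleotides and the MYBL2 window 76.8% with 30, against medians of 58.0% and 11 over all windows. The GC box GGGCGG occurred 7 times in the MYBL2 window, 1 time in the MYB window and in neither of the other 2, and 42.6% of all windows held it. The core of the site that MYB itself binds, AACNG, occurred 1 time in the MYB window, 2 times in the AHI1 window and not in those of MYBL2 and HBS1L, and 70.6% of all windows held it. The GATA letters AGATAA or TGATAA (14.6% of all windows), the cell cycle element TTTGAA (13.3%), CCAAT (32%), TATAAA (10.7%) and the longer MYB core TAACNG or CAACNG (39.3%) were found in none of the 4 windows. E2F-type cores, searched first as TTCCCGC, then as TTGGCGC, next as TTCGCGC and last as TTGCCGC, occurred 1 time, in the AHI1 window, and 10.9% of all windows held at least one of them. These matches describe letters only, and no binding was measured in these libraries.

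All 5 genes reached the minimum mean of 0.5 FPKM over the 4 libraries and so belonged to the 16668 tested genes. MYBL1, at a mean of 0.164 FPKM in control, reached it only through the GNE-987 libraries. Of the tested genes, 58.5% passed the study's thresholds of P below 0.05 and a change of more than 2 times in either direction. P was taken without adjustment here, since the study's methods name none, and with adjusted P 9635 genes were called in place of 9750. The lower calls made up 24.9% and the higher calls 33.6% of the tested genes. Of the 5 genes, MYB and HBS1L were called lower, MYBL1 was called higher, and MYBL2 and AHI1 were not called. Because the 5 were chosen with this comparison known, nothing is read from that count. In bulk RNA, fewer cells of a type and less RNA per cell cannot be told apart. The labels do not say that the replicates were separate cultures, so errors and P values measure the spread between these libraries.

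**Figure D1:**
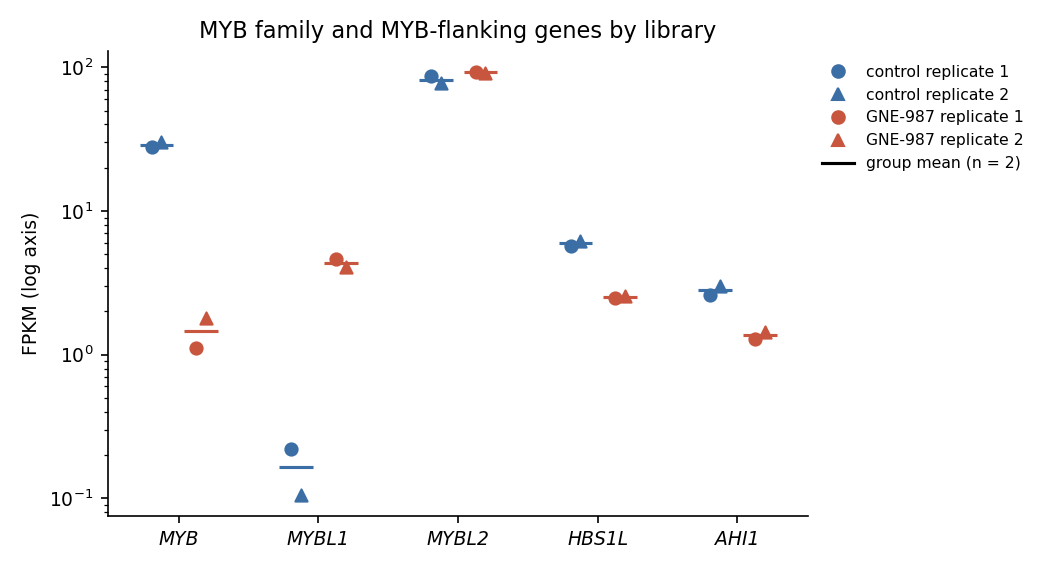
FPKM (log axis) of MYB, MYBL1, MYBL2, HBS1L and AHI1 in each library. Blue points are control and red points GNE-987 libraries, circles are replicate 1 and triangles replicate 2, and bars are means of 2. MYB drops from 27.9 and 30.1 to 1.11 and 1.79 FPKM while MYBL1 moves from 0.222 and 0.106 to 4.63 and 4.10.

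MYB (ENSG00000118513) lies on the plus strand at chr6:135181308-135219173 (GRCh38), and its reference transcript has 16 exons and encodes 761 amino acids. It measured 27.9 and 30.1 FPKM in control, against 1.11 and 1.79 FPKM after GNE-987. Both GNE-987 libraries were far below both control libraries. Mean levels were 29.0 ± 1.52 FPKM (SD, n = 2) in control and 1.45 ± 0.484 FPKM (SD, n = 2) with GNE-987. The log2 fold change on the log2(FPKM + 0.1) scale was -4.26 with a standard error of 0.245, and the control mean was 19.95 times the GNE-987 mean. This was the decrease of rank 7 among 10996 tested protein-coding genes.

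The reads behind these values numbered 3529 and 3652 in control. After GNE-987 there were 51 reads, with an exact 95% Poisson interval of 38.0 to 67.1, and 87 reads, with an interval of 69.7 to 107. These intervals cover counting error only. The GNE-987 replicates differed by 1.62 times on the FPKM scale, and no test of that difference was made. Without GNE-987 replicate 1 the log2 fold change was -3.94 and without GNE-987 replicate 2 it was -4.59. In control the level of MYB was above 92.4% of the tested genes, and with GNE-987 above 29.1%.

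MYBL1 (ENSG00000185697), on the minus strand at chr8:66562175-66614247, moved the other way. It had 37 and 17 reads in control, or 0.222 and 0.106 FPKM, against 280 and 262 reads after GNE-987, or 4.63 and 4.10 FPKM. The groups did not overlap although the GNE-987 libraries held fewer reads in all. Means were 0.164 ± 0.0819 FPKM (SD, n = 2) in control and 4.36 ± 0.372 FPKM (SD, n = 2) with GNE-987, and the log2 fold change was 4.11 (standard error 0.288). The ratio of the means was 26.6, and the added constant of 0.1 FPKM is of the size of the control level. With a constant of 1 in its place the log2 fold change was 2.20, and with 0.01 it was 4.73. MYBL1 was at rank 562 of increases among protein-coding genes, and its level passed from above 15.5% to above 60.04% of tested genes.

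MYBL2 (ENSG00000101057), on the plus strand at chr20:43667019-43716495, was the highest of the 5 genes in every library. Control libraries held 86.3 and 78.1 FPKM (5519 and 4797 reads), and treated libraries 92.9 and 91.2 FPKM (2157 and 2235 reads). The GNE-987 values lay just above the control values on the deposited scale, by 0.16 on the log2 scale with a standard error of 0.0638. The median over all tested genes was 0.17, and set against that median MYBL2 was at -0.01. Its direction depended on the scaling, at -1.69 when libraries were scaled to GAPDH, -0.69 after quantile normalization and -0.61 when scaled to the total of recovered reads. GAPDH itself was at 398 and 432 FPKM in control and 1501 and 1499 FPKM with GNE-987.

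The 3 paralogs together summed to 114 and 108 FPKM in control and to 98.6 and 97.1 FPKM with GNE-987. MYB made up 24.4% and 27.8% of that sum in control and 1.13% and 1.85% with GNE-987. MYBL1 made up 0.194% and 0.0981% in control and 4.69% and 4.22% with GNE-987, so its level per length passed that of MYB. The MYBL1 to MYB ratio of FPKM was 0.00796 and 0.00353 in control and 4.17 and 2.29 with GNE-987. A factor that scales a whole library leaves these ratios as they are. MYBL2 held 75.4% and 72.1% of the sum in control and 94.2% and 93.9% with GNE-987, and the MYBL2 to MYB ratio went from 3.09 and 2.60 to 83.7 and 50.8.

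**Figure D2:**
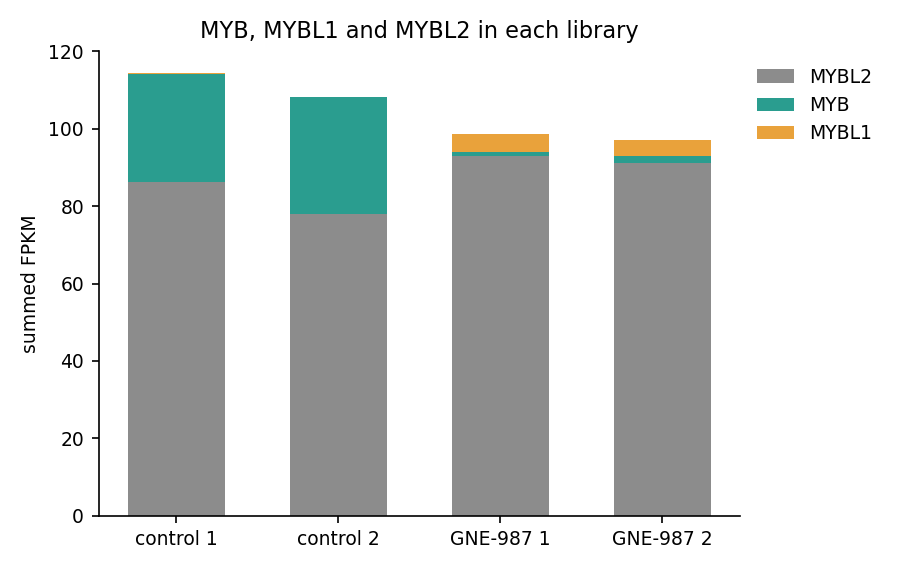
Summed FPKM of MYBL2 (grey), MYB (green) and MYBL1 (orange) in each of the 4 libraries. MYB takes 24.4% and 27.8% of the control bars and 1.13% and 1.85% of the GNE-987 bars, and MYBL1 is visible only in the GNE-987 bars, at 4.69% and 4.22%.

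HBS1L (ENSG00000112339) lies at chr6:134960378-135103056 on the minus strand, 78.252 kb from MYB, and the reference transcripts of HBS1L and MYB start 126.486 kb apart and run away from each other. HBS1L measured 5.67 and 6.22 FPKM in control, from 1449 and 1528 reads, against 2.49 and 2.55 FPKM after GNE-987, from 231 and 250 reads. The groups were well separated and the replicates close. Means were 5.95 ± 0.391 FPKM and 2.52 ± 0.0443 FPKM (SD, n = 2 each), with a log2 fold change of -1.20 (standard error 0.0916) and a control mean 2.36 times the GNE-987 mean. The level went from above 67.0% to above 45.5% of tested genes.

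AHI1 (ENSG00000135541), on the minus strand at chr6:135283407-135498434, begins 64.234 kb beyond the far end of MYB, and its reference transcript starts 316.432 kb from that of MYB. Its values were 2.61 and 3.002 FPKM in control, from 2096 and 2312 reads, against 1.28 and 1.44 FPKM after GNE-987, from 372 and 444 reads. Both GNE-987 values were below both control values. The control mean was 2.06 times the GNE-987 mean. With the added constant of 0.1 FPKM the log2 fold change was -0.99 (standard error 0.141). That fell just short of the fold threshold, a log2 value of 1 in size, while with a constant of 0.01 it was -1.04. The fold change also passed the threshold without control replicate 1 (-1.09) and without GNE-987 replicate 2 (-1.07). With the median over all tested genes taken off, AHI1 was at -1.17, HBS1L at -1.38 and MYB at -4.44.

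Within the chromosome 6 interval the balance of the genes moved as well. MYB was at 4.92 and 4.83 times the FPKM of HBS1L in control and at 0.446 and 0.703 times with GNE-987, so the order of the pair turned over. The HBS1L to AHI1 ratio moved little, from 2.17 and 2.07 to 1.95 and 1.77. On the deposited FPKM scale the order of levels in control was MYBL2, MYB, HBS1L, AHI1 and MYBL1, with no overlap between neighbours. With GNE-987 the order on that scale was MYBL2, MYBL1, HBS1L, MYB and AHI1, and there the ranges of MYB and AHI1 overlapped.

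Levels between genes rest on the gene lengths behind the FPKM values. The length that gives whole reads was 1.04 times the reference transcript for MYBL2, 1.49 times for MYB, 1.40 times for MYBL1, 1.57 times for HBS1L and 5.74 times for AHI1. Per length of the reference transcript, AHI1 would be at a mean of 16.1 FPKM in control and 7.82 with GNE-987, above HBS1L at 9.31 and 3.95. MYB would be at 43.2 and 2.17 and MYBL1 at 0.230 and 6.12 on that scale. The order of HBS1L and AHI1 thus turns on the length used, while the ratio of FPKM between groups does not. The log2 fold changes given here do shift with the length to a degree, through the added constant of 0.1 FPKM. With GNE-987 the place of AHI1 against MYB and MYBL1 turns on the length too. Per length of the reference transcript AHI1 was at 7.34 and 8.30 there, above MYBL1 at 6.49 and 5.75 and MYB at 1.66 and 2.68.

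Of 32 other annotated genes within 1000 kb of MYB on either side, 24 were listed at 0 in both control libraries, and 8 of those were above 0 in both GNE-987 libraries. The same shares over all genes were not taken, so nothing is read from these counts. Only 5 of the 32 reached a mean of 0.5 FPKM. ALDH8A1, an aldehyde dehydrogenase gene 231.193 kb from MYB on the far side of HBS1L, was at 0.0606 and 0.0158 FPKM in control, from 4 and 1 reads, against 1.96 and 2.01 FPKM after GNE-987, from 47 and 51 reads. It differed by 3.94 on the log2 scale (standard error 0.301) and reached the minimum level only through the GNE-987 libraries. MIR3662, a microRNA gene inside HBS1L, had 2 and 3 reads in control and 0 in both GNE-987 libraries and reached the minimum only through control. It was called lower on the FPKM scale, but limma-voom on the recovered reads called 0 of these other genes lower. RNA5SP218, a Y_RNA copy and the lncRNA ENSG00000234084 were not called, on at most 11 reads in any library. The antisense gene MYB-AS1, inside MYB, had 8 and 6 reads in control and 0 in both GNE-987 libraries, which allows up to 3 reads in each. Since strand use in counting is not given in the sources used here, reads of MYB and MYB-AS1 cannot be told apart.

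**Figure D3:**
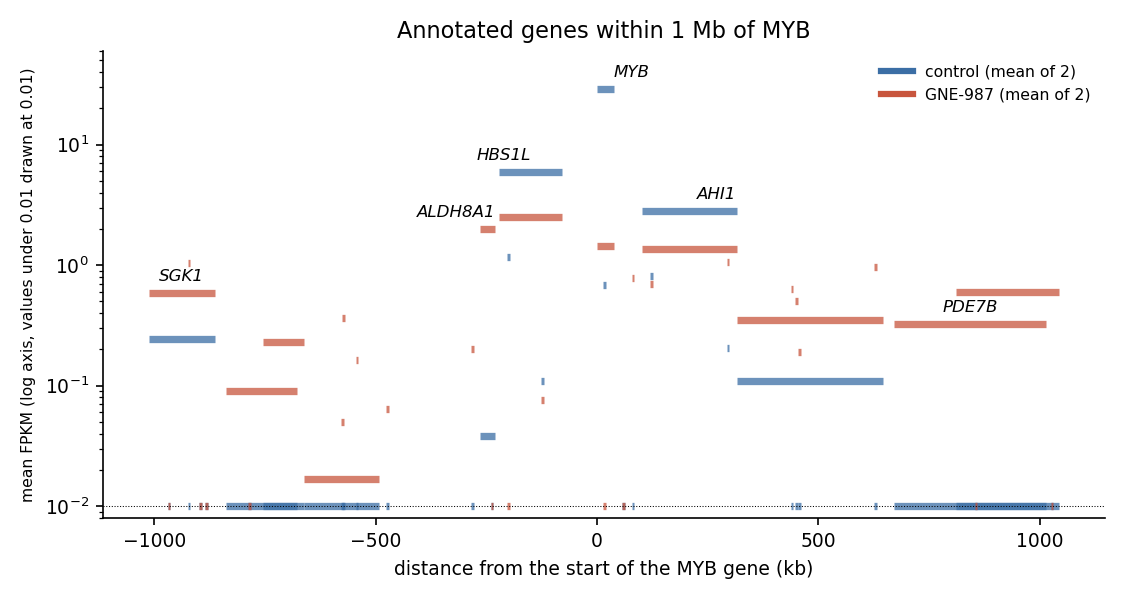
Mean FPKM (log axis) of every annotated gene within 1000 kb of MYB, drawn across its extent as distance from the start of MYB in kb. Blue is the mean of the 2 control and red of the 2 GNE-987 libraries, and values under 0.01 are drawn at 0.01. MYB, HBS1L and AHI1 are the genes with control bars above 2 FPKM, and ALDH8A1 is higher with GNE-987.

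The neighbours of the paralogs were read the same way, as all genes within 150 kb, and were named after their values were seen. VCPIP1, whose end lies 14.24 kb upstream of MYBL1 on the same strand, was at 3.05 and 3.05 FPKM in control and 5.83 and 6.07 FPKM with GNE-987, a log2 fold change of 0.94 against 4.11 for MYBL1. It was not called, and nor was SGK3 at 0.81, while RRS1, a ribosome assembly gene on the other side, was lower at -3.25. Upstream of MYBL2, IFT52 (2.15), SGK2 (6.05) and L3MBTL1 (2.85) were all called higher beside a MYBL2 that was not called. SGK2 had 3 and 3 reads in control and 362 and 369 with GNE-987. IFT52, the nearest of these at 19.72 kb, was at 2.97 and 3.36 FPKM in control against 14.6 and 14.2 FPKM after GNE-987. SGK2 and L3MBTL1 reached the minimum level only through the GNE-987 libraries.

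Among the genes whose proteins work with MYB, more fell than rose. Of 18 listed coactivators and partners 17 were tested, of which 8 fell, 2 rose and 7 were not called, with a median log2 fold change of -0.98. Over all tested genes 24.9% were called lower and 33.6% higher, the median was 0.17, and over tested protein-coding genes, which most of the lists hold, it was -0.29. The quartiles of protein-coding genes were -1.25 and 0.94, both lower than the -1.07 and 2.05 of all tested genes. The shares of calls given beside the lists include other gene types, and none was taken over protein-coding genes alone. The chromatin reader ZMYND8 was at 12.6 and 13.0 FPKM in control and 1.22 and 1.40 FPKM with GNE-987. Its log2 fold change was -3.20 (standard error 0.0996). LMO2, a bridging protein of the TAL1 complex, was at -2.33, MEN1 (menin) at -1.82 and the kinase gene HIPK2 at -1.68, all called lower. TAF12, a TFIID subunit, and FBXW7, a ubiquitin ligase subunit that recognises MYB, were called higher at 1.37 and 1.21, but both were negative when scaled to GAPDH, and the list held 1 higher call without GNE-987 replicate 1 and 1 without GNE-987 replicate 2. The acetyltransferase genes EP300 and CREBBP, named for their role, were at -0.17 and -0.98 and not called, as were TAL1 at -0.74 and NLK at -0.24. KMT2A (0.80), PIAS3 (0.73) and ETS2 (0.38), named after their values were seen, were not called either.

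Of 25 genes described as targets of MYB only 12 were tested, since many of them, CD34, KIT and RAG2 among them, averaged under 0.5 FPKM in these cells. Among the 12, 6 fell (50%), 2 rose (16.7%) and 4 were not called, with a median log2 fold change of -0.89. The shares over all tested genes were 24.9% lower and 33.6% higher. Without the minimum level there were 7 lower and 5 higher calls, and the median turned to 0.29. CDK6, a kinase of G1 phase, was at 10.6 and 10.8 FPKM in control and 2.12 and 1.75 FPKM with GNE-987 (-2.42). The erythroid factor gene KLF1 (-1.71), the survival gene BCL2 (-1.59) and LMO2 fell too. The granule genes MPO (6.71) and AZU1 (2.43) went against them, with MPO at 11.8 and 11.3 FPKM in the GNE-987 libraries. MPO reached the minimum level only through those libraries. MAT2A at 0.76 and CCNB1 at -0.60 were not called. Among 9 microRNA genes and hosts described as binding MYB, 4 were tested and 1, MIR424, was called higher on 3 and 1 reads with GNE-987 against 0 in both control libraries, so it reached the minimum level only through GNE-987, while DLEU2 (0.65) and MIR503HG (0.18) were not.

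The markers of several cell types differed between the groups as well, in different directions. Their counts stand beside 33.6% called higher and 24.9% lower over all tested genes. The summed level of 10 granule and myeloid markers was 12.9 and 11.2 FPKM in control and 39.0 and 37.3 FPKM with GNE-987, with 4 of 7 tested called higher and 1 lower, and CTSG at 0 throughout. That of 10 erythroid markers was 347 and 348 FPKM in control and 384 and 333 FPKM with GNE-987, with 4 higher and 5 lower. GATA1 was at 15.1 and 12.5 FPKM, HEMGN at 1.05 and 0.521 and EPOR at 1.09 and 0.736 FPKM in the GNE-987 libraries, while ALAS2 was at 13.2 and 12.5. Of the 4 higher calls, those of ALAS2, HBG1 and HBZ were negative when scaled to GAPDH. The 5 megakaryocyte markers summed to 1.39 and 1.41 FPKM in control and 6.33 and 7.76 with GNE-987, with ITGA2B and GP1BA called higher (GP1BA was negative when scaled to GAPDH), GP9 and PPBP at 0 in control and PF4 at 0 in all. The 5 markers of T, B and monocytic cells summed to 17.2 and 16.4 and to 71.1 and 74.4 FPKM, with CD14 at 0.0921 and 0.120 in control and 50.4 and 52.2 with GNE-987. Of the called markers, MPO, CEBPE, ITGA2B and CD14 reached the minimum level only through the GNE-987 libraries, and CD33, called lower, only through control. CD3D was not called, and CD3E and MS4A1 were at 0 in control. The part of these shifts in the decrease of MYB was not tested.

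MYB restrains fetal globin in erythroid cells, so the globins and their regulators were read beside it. Of 16 listed genes 14 were tested, of which 7 rose (50%), all of them globins, 3 fell (21.4%) and 4 were not called. Among all tested genes 33.6% were called higher and 24.9% lower. The higher calls dropped to 3 without GNE-987 replicate 1 and to 3 without GNE-987 replicate 2, to 4 after quantile normalization, to 3 by the total of recovered reads and to 1 by GAPDH. HBG1 was at 154 and 123 FPKM and HBG2 at 88.2 and 77.7 FPKM with GNE-987, log2 fold changes of 1.66 and 3.04. The adult gene HBB was called higher at 3.58, but from 0.133 and 0 to 1.56 and 1.91 FPKM, and HBA1 at 1.89. HBB reached the minimum level only through the GNE-987 libraries. HBG1 and HBG2, and HBA1 and HBA2, are near-identical copies, so their split is uncertain, and HBG1, HBD, HBA2 and HBZ were negative when scaled to GAPDH. Among the regulators MBD2 (-1.87), KLF1 (-1.71) and NR2C1 (-1.43) fell, ZBTB7A (-0.32) and NR2C2 (-0.08) were not called, and BCL11A, the main silencer of fetal globin, was listed at 0 in all 4 libraries.

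**Figure D4:**
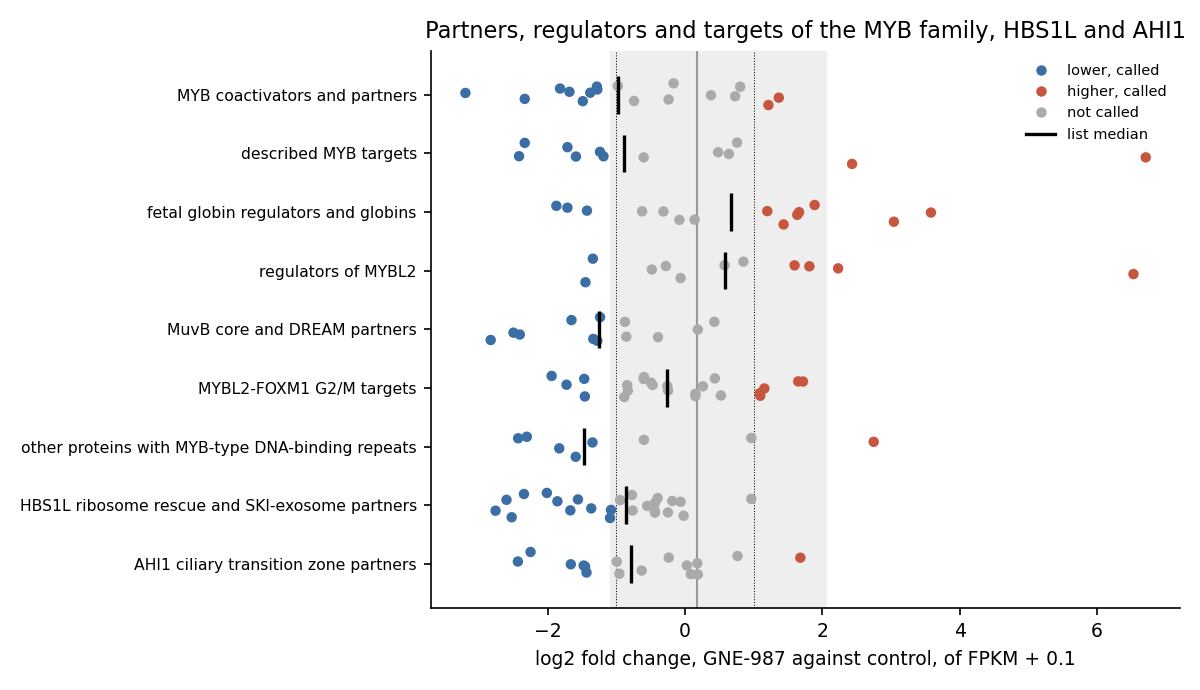
Log2 fold change, GNE-987 against control, of each tested gene in the 9 lists named on the axis, which leave out the microRNA genes. Blue points were called lower, red higher and grey not, black bars are list medians, the shaded band spans the quartiles of all tested genes (-1.07 to 2.05) and the grey line is their median of 0.17. The MuvB list has its median at -1.26 with no gene called higher, and the list of MYBL2 regulators its median at 0.58.

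MYBL2 was not called, while several genes of a list that holds the MuvB core and the DREAM complex were lower. The list takes in the MuvB core, the DREAM complex, which represses cell cycle genes in resting cells, and partners such as FOXM1. Of its 13 genes 12 were tested. Of these 7 fell (58.3%), 0 rose and 5 were not called, with a median log2 fold change of -1.26. The shares over all tested genes were 24.9% lower and 33.6% higher. Without the fold threshold limma put 1 of them higher at an unadjusted P under 0.05, and limma-voom on the recovered reads called 0 higher. E2F4, the repressive E2F of DREAM, was at 44.3 and 42.1 FPKM in control and 6.44 and 5.57 FPKM with GNE-987. Its log2 fold change was -2.83 (standard error 0.0923). FOXM1, which joins MYBL2 and MuvB in G2 phase, was at 13.8 and 12.6 FPKM in control and 2.20 and 2.31 FPKM with GNE-987 (-2.50). The pocket protein gene RBL2 was lower at -2.41 and TFDP2 at -1.65, while TFDP1 (-0.85) and LIN54 (0.43) were not called. In the MuvB core, which MYBL2 joins, LIN9 (-1.24) and RBBP4 (-1.28), named for their role, were lower. LIN52 (-0.88) was not called and LIN37 was not tested.

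Among 11 regulators of MYBL2 transcription and activity 4 rose (36.4%), 2 fell (18.2%) and 5 were not called. These shares are near the 33.6% higher and 24.9% lower over all tested genes, which include other gene types, so nothing is read from the counts. The list median of 0.58 turned to -0.20 by the total of recovered reads and -1.27 by GAPDH. CDKN1A (p21), an inhibitor of cyclin-dependent kinases, was at 0.812 and 0.548 FPKM in control and 70.0 and 71.9 FPKM with GNE-987, a log2 fold change of 6.53. CDKN1B (p27) was higher at 2.23 and CCNE2 at 1.59, though CCNE2 was negative when scaled to GAPDH. CDK2, which with cyclin A activates MYBL2, went from 21.5 and 21.4 FPKM to 7.86 and 7.71 FPKM (-1.45). E2F2 (-1.34) fell as well, whereas CCNA2 (-0.06) and E2F3 (0.58) were not called.

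The genes that MYBL2 and FOXM1 drive toward mitosis were called in both directions on the deposited scale, but not by every scaling. Of 25 listed, 23 were tested, of which 5 rose (21.7%), 4 fell (17.4%) and 14 were not called, with a median log2 fold change of -0.26. Both shares were below the 33.6% higher and 24.9% lower over all tested genes. The median was -0.43 without control replicate 1 and -0.16 without control replicate 2. Scaling to the total of recovered reads gave 0 higher and 13 lower, quantile normalization 2 and 8, and GAPDH 0 and 18. KIF23 (1.72), NUSAP1 (1.65), CDK1 (1.16) and KIF2C (1.10) were called higher, but all 5 higher calls, AURKB included, were negative when scaled to GAPDH. ECT2 (-1.94), TTK (-1.73), CDC25B (-1.47) and CDC25C (-1.46) fell. CDC20 was at 88.8 and 79.7 FPKM in control and 121 and 121 FPKM with GNE-987 (0.52), and TOP2A at 0.15, neither of which was called.

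HBS1L, whose decrease had rank 2885 among protein-coding genes, was read beside the machinery it serves. Of 24 genes of ribosome rescue and of the SKI complex and exosome, which degrade the released mRNA, all were tested, of which 11 fell, 0 rose and 13 were not called, with a median log2 fold change of -0.86, against 24.9% lower over all tested genes and a median of -0.29 over protein-coding ones. Here too limma put 1 higher at an unadjusted P under 0.05 without the fold threshold, and limma-voom called 0 higher, while 1 was called higher without control replicate 2 and 1 without GNE-987 replicate 2. PELO, the partner of HBS1L, was at 5.27 and 5.22 FPKM in control and 0.550 and 0.860 FPKM with GNE-987. Its log2 fold change was -2.76 (standard error 0.230). The exosome genes EXOSC3 (-2.60), EXOSC2 (-2.52) and EXOSC7 (-2.35) fell too. ZNF598, which marks collided ribosomes, was at -0.95 and EXOSC5 at -0.02, and neither was called. HBS1L, at -1.20, was within the range of its partners.

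For AHI1, 16 of 20 listed genes of the ciliary transition zone were tested. Of these 6 fell (37.5%), 1 rose (6.25%) and 9 were not called, with a median log2 fold change of -0.79. That compares with 24.9% lower and 33.6% higher over all tested genes. The median was -0.49 without GNE-987 replicate 1 and -1.05 without GNE-987 replicate 2. IQCB1 was at 9.83 and 8.24 FPKM in control and 1.65 and 1.52 FPKM with GNE-987 (-2.43). INPP5E (-2.25), TMEM216 (-1.66) and INVS (-1.47) fell, TMEM17 (1.68) was called higher, and MKS1 (0.19) and TCTN3 (-0.99) were not called. The call of TMEM17 was lost without either GNE-987 library, with a pseudocount of 1, with a minimum mean of 1 FPKM, after quantile normalization and by GAPDH, and the lower calls came to 3 with that pseudocount. Of 8 other proteins with DNA-binding repeats of the MYB type, 5 fell (62.5%), 1 rose (12.5%) and 2 were not called. TTF1 (-2.43), MYSM1 (-2.30), TERF1 (-1.83) and MYPOP (-1.59) fell, SNAPC4, the repeat-bearing subunit of the snRNA activator, was at 9.71 and 10.4 FPKM in control and 67.2 and 68.7 FPKM with GNE-987 (2.75), and DMTF1 (0.96) and TERF2 (-0.60) were not called.

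The genes whose values over the 4 libraries lay nearest to those of MYB, among the 3871 tested genes that averaged 10 FPKM or more, were MYEOV, PTPN7, NFE2, LYL1 and LINC00508, at distances of 0.380 to 0.807 on the log2 scale. MYEOV was at 34.9 and 34.4 FPKM in control and 1.62 and 1.78 FPKM with GNE-987. NFE2, a factor of erythroid and megakaryocytic cells, was at 58.6 and 52.9 FPKM in control and 3.25 and 2.98 FPKM with GNE-987. For MYBL2 PRPF6, SRSF2, CXXC1 and PRSS21 were among the 5 nearest, at 0.0245 to 0.0508. The splicing factor gene SRSF2 went from 69.4 and 61.7 FPKM to 74.9 and 70.7 FPKM. With 2 libraries a group this likeness is mostly that of 1 difference between group means.

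**Figure D5:**
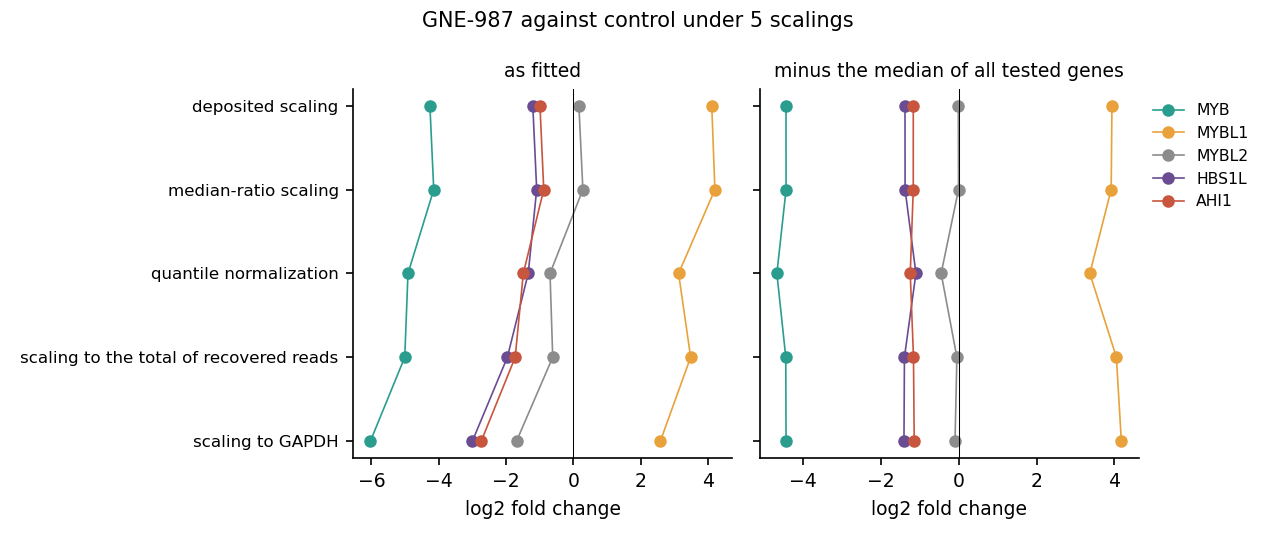
Log2 fold change of the 5 genes, GNE-987 against control, under 5 scalings of the libraries, as fitted (left) and minus the median of all tested genes (right). MYB is between -6.03 and -4.15 as fitted and between -4.67 and -4.44 relative to the median, and MYBL2 changes sign on the left with the scaling. Factors per library cancel on the right by construction, apart from the added constant.

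Under the 5 scalings shown in the plot of scalings, MYB, HBS1L and AHI1 stayed lower and MYBL1 stayed higher with GNE-987. MYB was at -4.15 by median ratio, -4.91 by quantiles, -5.01 by the total of recovered reads and -6.03 by GAPDH. MYBL1 was at 4.21, 3.13, 3.48 and 2.59 in the same order. Once the median over all tested genes was taken off, these values came closer together, at -4.44 to -4.67 for MYB and 3.37 to 4.18 for MYBL1. Apart from the added constant this follows by construction where a scaling is a factor per library, since the factor moves each gene and the median alike. Quantile normalization is not of that kind, and it gave the -4.67 and the 3.37.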

How the data were processed

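RNA-seq was done in 4 libraries of cells labelled NB4, and the authors deposited FPKM values per gene. HISAT2 2.0.5 and hg38 come from the submitters' processing notes. The authors' methods name DESeq2 for differential expression, while the read counter and annotation are not given in the sources used here. Names and positions were taken from GENCODE release 44, which held 99.1% of the identifiers. The test was limma 3.58.1 (R 4.3.3, intensity trend, Benjamini-Hochberg adjustment) on log2(FPKM + 0.1), over the 16668 genes that averaged 0.5 FPKM or more. Calls needed P below 0.05 without adjustment and a change of more than 2 times in either direction. Whole reads were worked out from how FPKM values are spaced, with a tolerance of 0.01 of a read, and 53.4% of 32627 genes came out whole at the annotated lengths, the others at a searched length, which is a weaker check, except 93 that were not recovered. The steps were tested on simulated data.

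The 5 genes and the lists were chosen with earlier results of these data known. Genes named from a list were up to 4 called with the largest increases, up to 4 with the largest decreases, and up to 2 not called with the highest mean FPKM, and a few genes that the rule or a list holds are not reported here by name. Likeness was the Euclidean distance of the 4 log2 values, each minus the gene's control mean. Promoter sequences came from RefSeq, matched by symbol for 4 of the 5 genes. Alternatives were other pseudocounts, filters, scalings, thresholds, a replicate block, a read-based fit and leaving out each library.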

Additional observations from a re-analysis of the deposited data

How the results depend on the processing

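Of 80 recalculations of the 5 log2 fold changes under other settings, 69 kept their direction and their side of the thresholds. The other filters, the adjusted P, the test against a fold change of 2 and the replicate block leave the log2 fold changes as they were. Only P could differ in those, so the 69 is not a count of independent checks. Of the counts of calls, 28 of 32 over all genes and 297 of 352 over the lists stayed within 1.5 times. HBS1L was at -0.98 with a pseudocount of 1, short of the fold threshold. AHI1 passed it at -1.04 with a pseudocount of 0.01, -1.04 with limma-voom on recovered reads, -1.49 after quantile normalization, -1.73 when scaled to the total of recovered reads and -2.74 when scaled to GAPDH. Leaving out each library in turn moved AHI1 between -1.09 and -0.90, and it passed without control replicate 1 (-1.09) and without GNE-987 replicate 2 (-1.07). MYBL2 turned negative at -1.69 with GAPDH, -0.69 with quantiles and -0.61 with the read total. GAPDH scaling gave 3031 higher and 9738 lower calls against 5602 and 4148, the read total 6649 lower, and no filter 8757 higher. The share of higher calls was 57.5% as deposited, 23.7% with GAPDH, 43.7% with quantiles and 38.6% with the read total. These scalings shifted the median over all tested genes by -1.77, -0.42 and -0.74, and median-ratio scaling moved it by 0.11. Across genes, the deviations of same-numbered libraries from their group means had a correlation of 0.00537. Since each group held only 2 libraries, this correlation cannot decide whether the libraries were paired by replicate number. With that number as a replicate block, 5667 genes were higher and 4186 lower, and no call of the 5 genes changed. The cause of these changes was not tested. A comparison of normalizations planned for deposited counts was not run, since the values are FPKM, while limma-voom was run on the recovered reads. MYB rests on 51 and 87 reads with GNE-987 and MYBL1 on 37 and 17 reads in control.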
